A study of Mus musculus with 17 samples.

Results

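The ABC transporter family was described in RNA-seq of cortical microvessels from mice. Its members were taken as the protein-coding genes whose mouse symbol begins with Abca to Abcg and a number, which gave 50 of the 42687 genes in the deposited count table. The libraries came from WT mice and from APP/PS1 mice, which carry transgenes for the amyloid precursor protein and presenilin and model the amyloid deposition of Alzheimer's disease. All mice were 10 to 11 months old, and all received a peptide by intraperitoneal injection at 10 mg/kg every 2 days for 2 weeks. This was either gp91-ds-tat, which blocks the superoxide-producing oxidase NOX2, or its control sgp91-ds-tat, so no group was free of peptide. The 17 libraries formed 4 groups: WT with control peptide (WT_SC, 5 libraries), WT with inhibitor (WT_NOX2, 5), APP/PS1 with control peptide (APP_SC, 2) and APP/PS1 with inhibitor (APP_NOX2, 5). The labels write APP, NOX2 and SC, which were read as APP/PS1, inhibitor and control peptide. The protocol speaks of the ipsilateral cortex after surgery and does not say what the surgery was. The labels do not give the promoter of the transgenes, the sex of the mice, or whether each library came from 1 mouse, so the p-values measure the spread between these libraries.

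ABC proteins bind and hydrolyse ATP to move substrates across membranes, and most are exporters. At the blood-brain barrier, P-glycoprotein and Abcg2 sit in the luminal membrane of endothelial cells and return drugs and other lipophilic compounds to the blood. Other members move cholesterol and phospholipid to apolipoproteins, serve mitochondria, peroxisomes and lysosomes, or regulate potassium channels, and the ABCE and ABCF proteins have no membrane domains and act in translation.

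The libraries held from 7316503 to 17862965 counts in total (median 11342154). A floor of 3 counts corresponded to 0.173 to 0.389 CPM (read counts scaled to library size), a limit that covers counting error only. The labelled cell types, which are endothelial cells, pericytes and astrocytic endfeet, had their markers: all 6 genes of each of those 3 lists had counts, and the 6 endothelial genes summed to 2006 to 3934 CPM per library. Neuronal transcripts were present at a like level, since the 5 neuron markers summed to 2412 to 4091 CPM. The 5 choroid plexus markers summed to between 29.4 and 8088 CPM and so differed most between libraries. Microglial markers moved with genotype: 4 of 6, among them Csf1r, Cx3cr1 and P2ry12, rose in APP/PS1 over both peptides by edgeR's test, with 0 of 6 called within either peptide, and the 6 together summed to 171 to 238 CPM in WT and 205 to 385 CPM in APP/PS1 libraries. Of 6 astrocyte markers, 5 were higher in APP/PS1 over both peptides (median log2 difference 0.21), and 1, Gfap, passed, by 1.20 ± 0.15. In such bulk samples, fewer cells of a type and less RNA per cell cannot be told apart.

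Abcb1a and Abcb1b encode the P-glycoproteins of the mouse, and the count of each depends on how reads were divided between these near copies. Abcb1a spans chr5:8660077-8748575 and Abcb1b chr5:8798147-8866315, both on the plus strand of GRCm38, in the GENCODE vM21 annotation. Their coding sequences were both 3828 bases long and shared 88.1% of 3819 aligned bases. The longest run without a difference held 338 bases, and its start is shown first because a read that lies inside it cannot be given to either gene. Of these 90 coding bases, the capitals mark the first 66 of the identical run.
Abcb1a: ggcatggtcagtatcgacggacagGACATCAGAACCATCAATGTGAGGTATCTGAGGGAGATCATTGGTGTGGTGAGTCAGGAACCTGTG
Abcb1b: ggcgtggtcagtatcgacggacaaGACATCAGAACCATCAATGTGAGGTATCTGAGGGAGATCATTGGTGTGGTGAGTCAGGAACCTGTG
A stretch of 60 coding bases further along shows the contrary case, in which 25 bases differ and a read can be placed. It begins at coding base 1913 of Abcb1a and 1922 of Abcb1b, and the capitals mark the bases that differ.
Abcb1a: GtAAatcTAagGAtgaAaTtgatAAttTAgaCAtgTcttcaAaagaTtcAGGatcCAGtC
Abcb1b: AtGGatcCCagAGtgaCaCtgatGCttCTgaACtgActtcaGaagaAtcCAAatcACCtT
Of all stretches of 50 bases in the transcripts of Abcb1a, 17.6% also occurred in transcripts of another gene, with Abcb1b as the main partner. For Abcb1b the share was 11.6%, with Abcb1a as the main partner. The counts of both genes are therefore uncertain. How reads in shared stretches were counted is not given in the sources used here. The effect on either gene, including the less abundant Abcb1b, was not tested. Among the other members, Abcb6 shared 50.01% of its stretches with other genes, mainly the overlapping gene Gm29253, and its values are likewise uncertain. Overlap with a gene on the other strand covered 10.1% of the exons of Abcb1a, 9.75% of those of Abca3 and 10.3% of those of Abcb10, and whether the counting used the strand is not given in the sources used here.

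Of the 50 genes, 33 averaged at least 10 CPM, and 9 of these at least 100 CPM, while 10 averaged below 1 CPM. The filter on low counts kept 41 members. The 9 others were Abcc2, Abca12, Abca14, Abca15, Abca16, Abcb5, Abcb11, Abcg5 and Abcg8, with between 1 and 84 counts each over the 17 libraries together. They include the pumps of the liver canaliculus, Abcc2 and Abcb11, and the sterol transporters of liver and gut, Abcg5 and Abcg8.

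Abcb1a had the highest level of the family per kilobase of exon, with a mean of 69.7 ± 13.6 CPM per kilobase (SD, n = 17). Abca2, an endolysosomal lipid transporter known from oligodendrocytes and neurons, followed at 66.4 ± 10.9. Abcb1a stood above Abca2 in 10 of 17 libraries, so their order is not fixed by these data. Abcc5, a pump for cyclic nucleotides and other organic anions, reached 36.6 ± 3.48 and stood below Abca2 and above Abcc4 in all 17 libraries. Abcc4, also an organic anion pump, had 24.04 ± 4.48, and Abca3, which moves phospholipid into lamellar bodies of the lung, had 20.5 ± 1.65 CPM per kilobase. These 5 genes made up 48.5% of the level of the whole family, and the first 10 made up 63.7%. After Abca1 at 16.2, the next genes lay close together: Abcc9 at 13.2, Abcg1 at 13.2 and Abcg2 at 13.0 CPM per kilobase, and Abcg1 exceeded Abcg2 in 10 of 17 libraries.

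The order depended on the length used. With the longest transcript of each gene in place of all annotated exons, Abcc5 moved to 67.2 and Abca3 to 29.7 CPM per kilobase, and Abcg2 moved from rank 9 to rank 6, while Abcb1a stayed first at 76.4. Abca2 then had 68.9 and stood above Abcc5 in 10 of 17 libraries, in place of all 17. Abcc4 stood above Abca3 in 4 of 17 libraries, in place of 14. Abcb1a exceeded Abcb1b in every library, with a ratio per kilobase of 29.0 to 73.8 and a median of 53.8. With the longest transcripts the median ratio was 31.8.

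**Figure D1:**
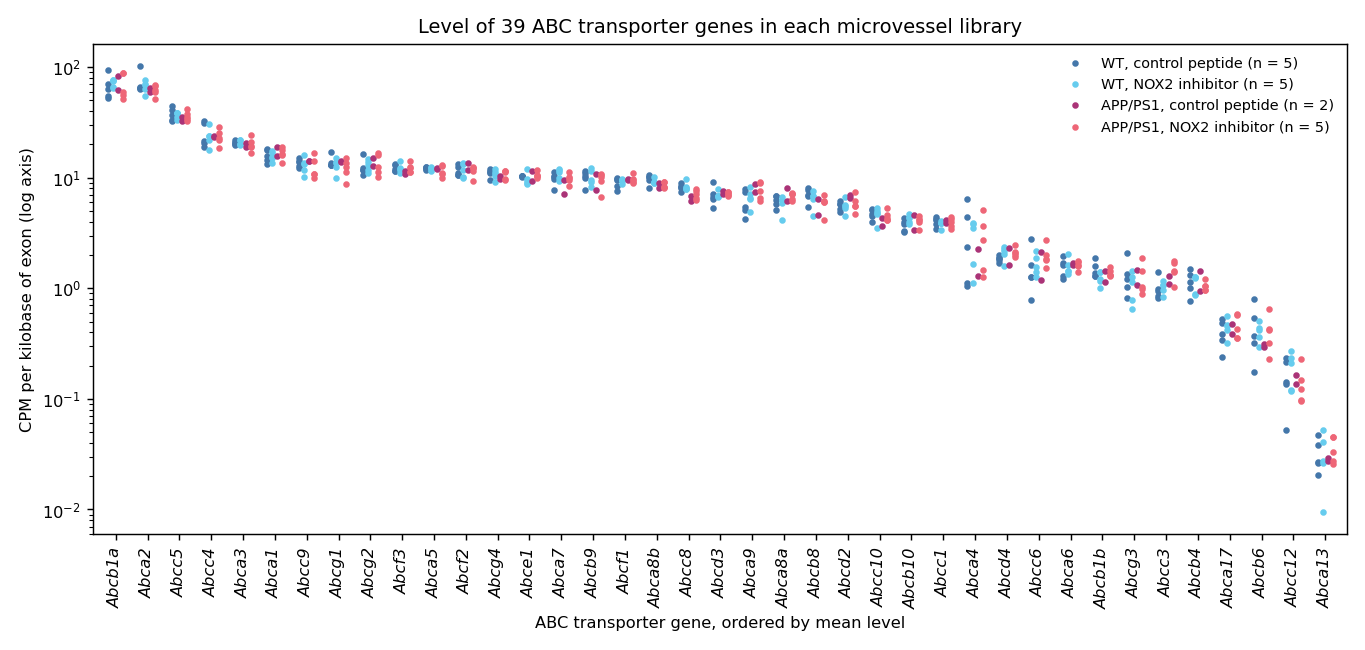
Level of 39 of the 41 tested members in each library, in CPM per kilobase of exon on a log axis, ordered by the mean over the 17 libraries and coloured by group. Abcb1a and Abca2 lie near the top at means of 69.7 and 66.4, and the points of the 4 groups overlap for most genes. Abca4 has the widest scatter of the members at 10 CPM or more.

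The members varied between libraries about as much as other genes of their level. The coefficient of variation over the 17 libraries had a median of 12.1% for the 33 members at 10 CPM or more, beside 12.9% for all 11188 genes at that level. Abca5 had the lowest value, 6.71%, and Abca4 the highest, 58.1%.

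No ABC transporter gene passed the threshold of an adjusted p of 0.05 for genotype, for inhibitor or for their interaction by edgeR's quasi-likelihood test. For genotype over both peptides 0 of 41 members were called, where 0.587% of the 18753 genes tested were called. For genotype with control peptide the count was 0 against 0.0533% of all genes, and for genotype with inhibitor 0 against 0.181%. For inhibitor over both genotypes, inhibitor in WT, inhibitor in APP/PS1 and the interaction it was 0 against 0% of all genes. A family of 41 genes would hold fewer than 1 call at the background share, so these counts of 0 do not set the family apart.

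At an unadjusted p under 0.05, edgeR gave 5 members for genotype over both peptides, beside 6.38% of all genes. Of these, 3 were higher in APP/PS1, beside 3.48% of all genes, and 2 lower, beside 2.9%. It gave 1 member for genotype with control peptide, beside 3.97% of all genes, and this 1 was lower (2.15%). It gave 2 for genotype with inhibitor, beside 3.38% of all genes, with 1 higher (2.08%) and 1 lower (1.3%). It gave 0 for inhibitor over both genotypes (2.11% of all genes), in WT (1.34%), in APP/PS1 (1.8%) and for the interaction (0.843%). These counts moved with single libraries: leaving out 1 at a time gave 2 to 9 members for genotype over both peptides. The lowest count came without APP_NOX2 replicate 2 or 5, beside 1170 of 18707 and 1110 of 18721 genes. The highest came without WT_NOX2 replicate 2, beside 1724 of 18704 genes. The count was 3 without WT_NOX2 replicate 5, beside 973 of 18703 genes. For genotype with control peptide it was 3 without WT_SC replicate 1 or 4, beside 1032 of 18696 and 1164 of 18820 genes. For genotype with inhibitor it was 1 without WT_NOX2 replicate 5, beside 506 of 18703 genes. It was 3 there without WT_NOX2 replicate 2, beside 941 of 18704 genes. The counts of 0 for inhibitor moved too. Among the libraries outside APP_SC, they moved most without WT_NOX2 replicate 2. There were then 2 members for inhibitor over both genotypes, beside 676 of 18704 genes. There were also 2 for inhibitor in WT, beside 311 of 18704 genes. Counts for inhibitor over both genotypes, inhibitor in APP/PS1 and the interaction also left 0 in fits without an APP_SC library. Such fits leave that group with 1 library.

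DESeq2's Wald test called 1 of 41 members, Abcc8, for genotype over both peptides, beside 0.971% of all genes. It called 0 members for genotype with control peptide (0.24% of all genes), 0 for genotype with inhibitor (0.325%) and 0 for the inhibitor comparisons and the interaction (0%).

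The intervals show how large a change could have gone unseen. For genotype over both peptides, the 95% interval of the log2 fold difference lay within ±0.5, a 1.41-fold change, for 33 of 41 members, beside 69.4% of all genes. For inhibitor over both genotypes it did so for 34 of 41 members, beside 72.4% of all genes. Precision was lower where APP_SC with its 2 libraries entered, for members and for all genes. It was 19 of 41 for genotype with control peptide, beside 39.7% of all genes. It was 25 of 41 for inhibitor in APP/PS1, beside 41.4%, and 17 of 41 for the interaction, beside 27.3%. The median log2 difference over the 41 members was -0.02 for genotype over both peptides, beside 0.00 for all genes, and 0.00 for inhibitor over both genotypes, beside 0.00.

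**Figure D2:**
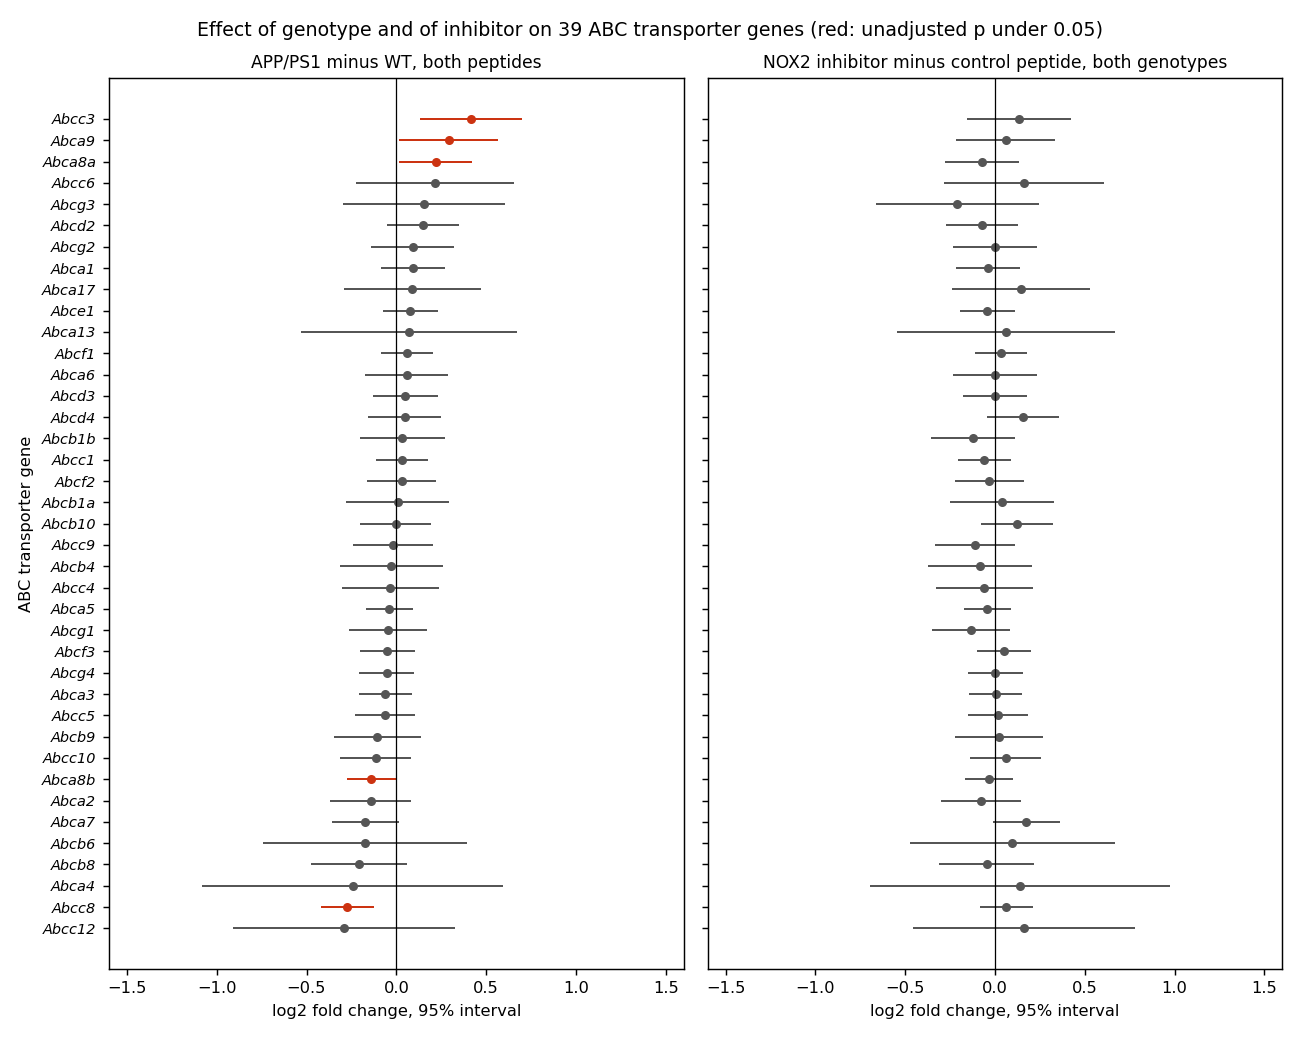
Log2 fold difference of 39 of the 41 tested members with its 95% interval, for genotype over both peptides (left) and for inhibitor over both genotypes (right), in the same gene order. Intervals in red belong to genes with an unadjusted p under 0.05: 5 for genotype and none for inhibitor. No gene passed the adjusted threshold in either panel.

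The drug efflux pumps of the barrier had overlapping levels in the 4 groups. Abcb1a had 382, 288, 345, 519 and 299 CPM in WT_SC and 422, 360, 423, 411 and 353 CPM in WT_NOX2, replicates 1 to 5 in turn. It had 340 and 457 CPM in APP_SC and 310, 488, 327, 280.2 and 486 CPM in APP_NOX2. The groups overlapped, and the spread within WT_SC and APP_NOX2 was wider than any gap between group means. The log2 difference of APP/PS1 from WT over both peptides was 0.01, with a 95% interval from -0.28 to 0.29, and that of inhibitor from control peptide was 0.04, from -0.24 to 0.32.

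Abcg2, the breast cancer resistance protein that works beside P-glycoprotein, spans chr6:58584523-58695676. It had 101, 86.3, 94.99, 133 and 96.2 CPM in WT_SC and 112, 95.1, 119.7, 107 and 89.9 CPM in WT_NOX2. In APP_SC it had 104 and 123 CPM, and in APP_NOX2 83.5, 136, 103, 91.2 and 132 CPM. The highest values of the WT_SC and APP_NOX2 groups fell in WT_SC replicate 4 and APP_NOX2 replicates 2 and 5, the libraries that were also highest in Abcb1a. The log2 difference was 0.09 for genotype (95% interval -0.13 to 0.32) and -0.00 for inhibitor (-0.23 to 0.23).

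Of the 10 pumps of the ABCB1, ABCC and ABCG2 kind, 9 were tested and 0 called, and 5 of 9 were higher in APP/PS1 over both peptides, with a median log2 difference of 0.01. Abcb1b had 8.03 to 15.0 CPM over all libraries and a log2 difference of 0.03 ± 0.11 (SE) for genotype. In WT mice its difference between inhibitor and control peptide was -0.26 ± 0.13, which did not pass (edgeR adjusted p = 1.00). Abcc1, a pump of glutathione and glucuronide conjugates, had 50.8 to 66.5 CPM, a genotype difference of 0.03 ± 0.07 and an inhibitor difference of -0.06 ± 0.07. These narrow errors belong to the low spread of Abcc1, whose coefficient of variation was 8.06%. Abcc4 had 112.8 to 208 CPM, with a genotype difference of -0.03 ± 0.13, and Abcc5 had 347 to 474 CPM, with -0.06 ± 0.08. Abcc10 and Abcc12, lesser known pumps of the same subfamily, had -0.12 ± 0.09 and -0.29 ± 0.29.

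Abcc3, a basolateral pump of bile salts and glucuronides, was the member with the largest genotype difference over both peptides. It had 7.97, 5.34, 5.58, 4.82 and 4.70 CPM in WT_SC and 6.63, 6.15, 6.10, 4.80 and 5.51 CPM in WT_NOX2. It had 7.33 and 6.23 CPM in APP_SC and 8.20, 9.73, 5.86, 7.98 and 9.99 CPM in APP_NOX2. Genotypes overlapped: WT libraries had 4.70 to 7.97 CPM and APP/PS1 libraries 5.86 to 9.99 CPM. The log2 difference was 0.42 ± 0.13 (edgeR adjusted p = 0.338) over both peptides, 0.24 ± 0.22 (adjusted p = 1.00) with control peptide and 0.52 ± 0.17 (adjusted p = 0.779) with inhibitor. Abcc3 is a low gene here, with 37 to 138 counts per library. Microglial markers moved with genotype in the same libraries (the sums above), and their part in this value was not tested.

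The sulfonylurea receptors regulate ATP-sensitive potassium channels rather than transport a substrate. Abcc8 encodes SUR1, known from neurons and pancreatic beta cells, and spans chr7:46104523-46180033. It had 67.5, 64.9, 67.0, 60.3 and 73.0 CPM in WT_SC and 66.4, 64.1, 64.7, 64.4 and 79.1 CPM in WT_NOX2. In APP_SC it had 50.04 and 55.3 CPM, and in APP_NOX2 64.4, 50.9, 61.9, 57.3 and 53.4 CPM. WT libraries averaged 67.1 ± 5.30 CPM (SD, n = 10) and APP/PS1 libraries 56.2 ± 5.43 CPM (SD, n = 7), and the overlap came from APP_NOX2 replicates 1 and 3, above the lowest WT library, WT_SC replicate 4.

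For genotype over both peptides, the log2 difference of Abcc8 was -0.27 ± 0.07, with an unadjusted p of 0.000731 and an edgeR adjusted p of 0.0954, which did not pass. With DESeq2's Wald test it was -0.28 with an adjusted p of 0.0165, which passed. With the endothelial marker score as a covariate in edgeR it was -0.28 with an adjusted p of 0.0177, which also passed. It did not pass with the other 4 settings run, where edgeR's adjusted p reached 0.222 with no filter on low counts. Leaving out 1 library at a time gave -0.31 to -0.24 and edgeR adjusted p-values from 0.0501 to 0.384. The difference was -0.34 ± 0.12 (adjusted p = 0.910) with control peptide and -0.24 ± 0.09 (adjusted p = 1.00) with inhibitor. Kcnj11, the pore subunit that pairs with SUR1, had a genotype difference of -0.10 ± 0.10 (edgeR adjusted p = 0.955). The neuron markers summed to 2412 to 4091 CPM in WT and 2501 to 3852 CPM in APP/PS1 libraries, and 0 of 5 were called.

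Abcc9 encodes SUR2, the receptor of the vascular channel of pericytes and smooth muscle. It had 126, 102.5, 116, 119.7 and 107 CPM in WT_SC, and 113, 134, 98.5, 84.9 and 112 CPM in WT_NOX2. It had 118 and 118 CPM in APP_SC and 90.9, 119, 90.4, 82.6 and 139 CPM in APP_NOX2. The groups overlapped. The SD was 18.3 CPM in WT_NOX2 beside 9.44 CPM in WT_SC, and 23.8 CPM in APP_NOX2. The SD of 0.423 CPM in APP_SC comes from 2 libraries and says little about spread. Differences in spread were not tested. The log2 difference was -0.02 ± 0.10 for genotype and -0.11 ± 0.10 for inhibitor. Kcnj8, its pore partner, had 0.13 ± 0.17 and -0.18 ± 0.17. Abcc6, whose loss causes ectopic calcification, had 4.45 to 16.1 CPM and a genotype difference of 0.21 ± 0.21. Abcg3, of unsettled function, had 2.33 to 7.41 CPM and 0.15 ± 0.21.

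**Figure D3:**
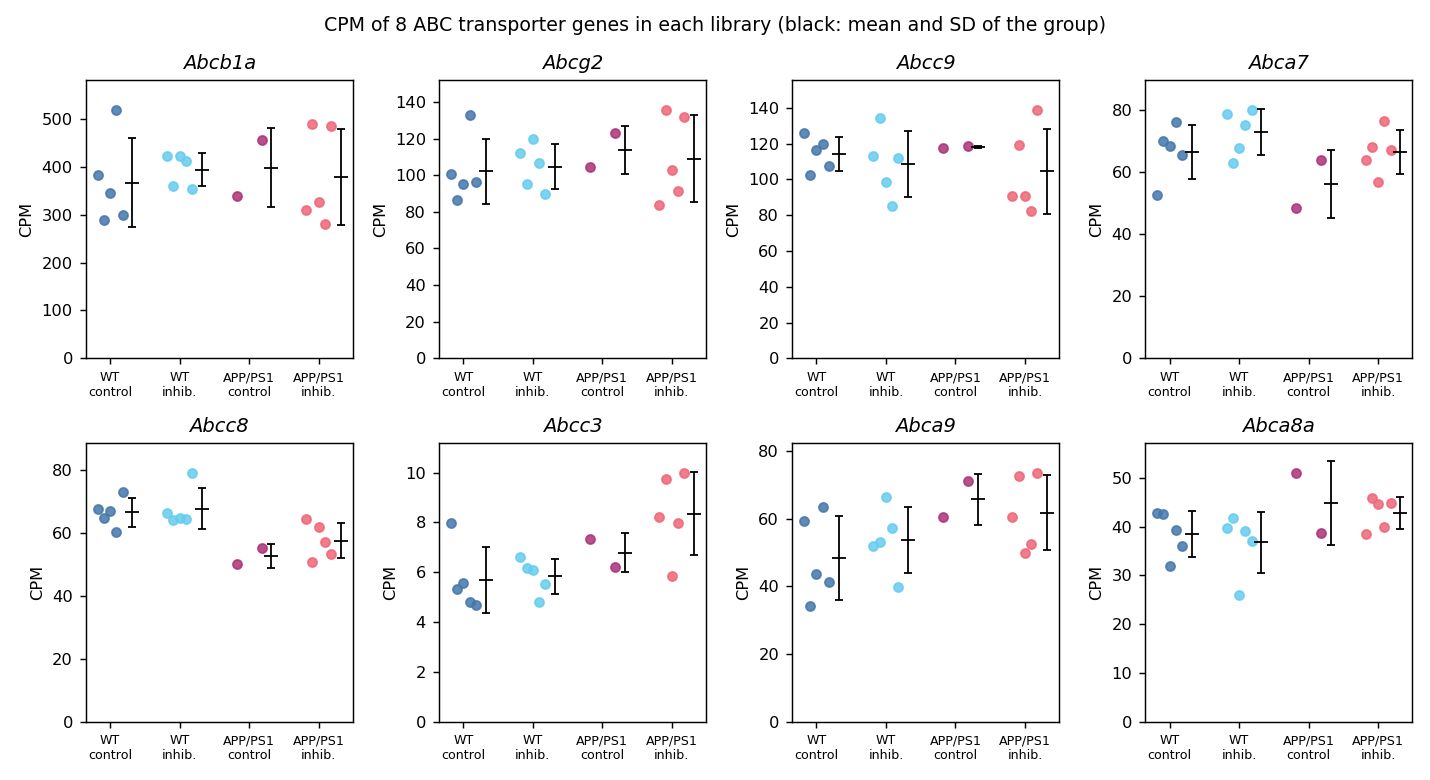
CPM of 8 members in each library by group, with the mean and SD of the group in black and each axis starting at 0. Abcb1a and Abcg2 overlap in the 4 groups. Abcc8 lies lower in APP_SC (50.04 and 55.3 CPM) than in any WT_SC library, and 7.53% of all genes separate these groups. The APP_NOX2 libraries lie between 50.9 and 64.4 CPM.

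The exporters of cholesterol and phospholipid numbered 9, of which 7 were tested and 0 called, and 1 of 7, Abca1, was higher in APP/PS1 over both peptides. Abca1 loads cholesterol onto apolipoproteins E and A1 and had 139 to 188 CPM in WT and 140.1 to 197 CPM in APP/PS1 libraries, a log2 difference of 0.09 ± 0.08. Abcg1, which passes cholesterol to formed lipoprotein particles, had 72.6 to 123.7 CPM in WT and 64.7 to 110.6 CPM in APP/PS1 libraries, a difference of -0.04 ± 0.10. Abcg4, its close relative in neurons and glia, had -0.05 ± 0.07, and Abcb4, the phosphatidylcholine floppase of bile, had -0.03 ± 0.14.

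Abca7, a phospholipid transporter in whose human counterpart variants are linked to Alzheimer's disease, had the smallest inhibitor p-value of this group. It had 52.7, 70.1, 68.4, 76.1 and 65.6 CPM in WT_SC and 78.7, 63.0, 67.8, 75.4 and 80.2 CPM in WT_NOX2. It had 48.5 and 64.0 CPM in APP_SC and 63.9, 68.3, 56.8, 76.6 and 67.4 CPM in APP_NOX2. The groups overlapped, although the mean was higher with inhibitor than with control peptide in both genotypes: 73.0 beside 66.6 CPM in WT and 66.6 beside 56.2 CPM in APP/PS1. The log2 difference was 0.17 ± 0.09 for inhibitor over both genotypes (edgeR unadjusted p = 0.0574, adjusted p = 1.00) and -0.17 ± 0.09 for genotype (unadjusted p = 0.0600, adjusted p = 0.791).

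Abca2 had 458 to 850.0 CPM in WT and 430.4 to 573 CPM in APP/PS1 libraries. Its highest value, 850.0 CPM, belonged to WT_SC replicate 1, the deepest library, and the other 4 libraries of that group had 525 to 555 CPM. The genotype difference was -0.14 ± 0.11. Abca3 had 155 to 226 CPM over all libraries, and its differences were -0.06 ± 0.07 for genotype and 0.00 ± 0.07 for inhibitor.

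The other ABCA genes numbered 12, of which 8 were tested and 0 called, with 5 of 8 higher in APP/PS1 and a median log2 difference of 0.06. Abca8a, Abca8b and Abca9 belong to a cluster of ABCA genes on chromosome 11, and all 3 had an unadjusted genotype p under 0.05. They were named after their values were seen. Abca9, a lipid transporter gene known from fibroblasts, had 59.3, 34.3, 43.6, 63.4 and 41.2 CPM in WT_SC and 51.9, 53.2, 66.5, 57.1 and 39.7 CPM in WT_NOX2. It had 60.4 and 71.0 CPM in APP_SC and 60.5, 72.7, 49.9, 52.4 and 73.5 CPM in APP_NOX2. APP/PS1 libraries averaged 62.9 ± 9.72 CPM (SD, n = 7) and WT libraries 51.0 ± 10.9 CPM (SD, n = 10), with overlap. The difference was 0.29 ± 0.13 (edgeR adjusted p = 0.722). Fibroblast marker sums were 195 to 341 CPM in WT and 201 to 355 CPM in APP/PS1 libraries, with 0 of 5 markers called. All 5 were higher in APP/PS1 over both peptides, with a median log2 difference of 0.17, and of 0.38 with control peptide, where Abca9 had 0.44 ± 0.21. With inhibitor, 4 of 5 were higher and the median was 0.02, where Abca9 had 0.21 ± 0.17. The part of fibroblast RNA in the Abca9 value was not tested.

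The neighbours of Abca9 had differences of both signs. Abca8a had 25.9 to 42.9 CPM in WT and 38.6 to 51.0 CPM in APP/PS1 libraries, a difference of 0.22 ± 0.09 (edgeR adjusted p = 0.702). Abca8b had 59.96 to 78.7 CPM in WT and 60.2 to 68.6 CPM in APP/PS1 libraries, a difference of -0.14 ± 0.06 (edgeR adjusted p = 0.725). Abca6 and Abca5, also of this cluster, had 0.06 ± 0.11 and -0.04 ± 0.06. Abca13 and Abca17, both low, had 0.07 ± 0.29 and 0.09 ± 0.18.

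Abca4, the retinoid flippase of photoreceptors, was the most variable tested member. It had 12.5, 13.4, 53.2, 77.4 and 28.3 CPM in WT_SC and 41.9, 13.5, 19.8, 46.6 and 46.0 CPM in WT_NOX2. It had 27.2 and 15.5 CPM in APP_SC and 43.9, 33.0, 15.3, 61.4 and 17.6 CPM in APP_NOX2. High and low libraries occurred in every group. It gave the largest fitted differences of the family, -0.78 ± 0.67 for genotype with control peptide, 0.68 ± 0.66 for inhibitor in APP/PS1 and 0.82 ± 0.82 for the interaction, and none had an unadjusted p under 0.05.

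The members of organelles and of translation held no called gene. All 4 mitochondrial members were tested and 0 called. Among them, Abcb8 had a genotype difference of -0.21 ± 0.12, Abcb6 -0.18 ± 0.27 and Abcb10 -0.00 ± 0.09. Abcb10, a mitochondrial inner membrane exporter tied to haem synthesis, had 13.8 to 20.2 CPM and an inhibitor difference of 0.19 ± 0.12 in WT. Both lysosomal members were tested and 0 called. Abcd4, which takes part in lysosomal release of vitamin B12, had 12.8 to 19.9 CPM and an inhibitor difference of 0.16 ± 0.09, and the lysosomal peptide transporter Abcb9 had 0.02 ± 0.11.

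All 3 peroxisomal members, which import very long chain or branched fatty acids, were tested and 0 called. Abcd2 had a genotype difference of 0.15 ± 0.09 and Abcd3 of 0.05 ± 0.08. Abce1, which recycles ribosomes, had 0.08 ± 0.07, and the ABCF genes had 0.06 ± 0.07 (Abcf1), 0.03 ± 0.09 (Abcf2) and -0.05 ± 0.07 (Abcf3). All 4 translation genes were tested and 0 called.

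Without overlap of libraries, 3 of 41 members separated APP_SC from WT_SC: Abcd2 higher, and Abcc8 and Abcf3 lower. With 2 against 5 libraries, 7.53% of all genes did so, and 3 of 41 is close to that share. Abcd2 had 38.7 and 41.2 CPM in APP_SC and 29.4 to 36.8 CPM in WT_SC, but 28.1 to 44.1 CPM in APP_NOX2. Abcf3 had 38.1 and 40.87 CPM in APP_SC and 40.92 to 47.6 CPM in WT_SC, but 40.4 to 50.1 CPM in APP_NOX2. No member separated the groups for genotype over both peptides (0.272% of all genes did), genotype with inhibitor (0.784%), inhibitor over both genotypes (0%), inhibitor in WT (0.224%) or inhibitor in APP/PS1 (4.63%).

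Partners and regulators of the transporters held no called gene either. Of 20 such genes, among them the nuclear receptors, Nrf2 and apolipoproteins that act on or with ABC genes, 17 were tested, and 0 passed edgeR's test in any of the 7 comparisons. For genotype over both peptides, 2 of 17 had an unadjusted p under 0.05 by edgeR's test, beside 6.38% of all genes. These were Mylip, a sterol-induced ubiquitin ligase for the LDL receptor, at 0.20 ± 0.10 and Ahr, the aryl hydrocarbon receptor, at -0.20 ± 0.10. For inhibitor over both genotypes, 0 of 17 had an unadjusted p under 0.05 by edgeR's test, beside 2.11% of all genes. Nr1h2, which encodes the oxysterol receptor LXR-beta, had an inhibitor difference of 0.16 ± 0.08. Of 3 ABC proteins with other symbols, Tap1, Tap2 and Cftr, 0 were called, and Cftr had an inhibitor difference in APP/PS1 of -0.77 ± 0.30 (edgeR unadjusted p = 0.0178, adjusted p = 1.00). That comparison rests on 2 APP_SC libraries, and 1.8% of all genes had an unadjusted p under 0.05 in it by edgeR's test.

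Several members varied between libraries together with the markers of a cell type. Marker scores were the mean log2 CPM of a list. For 8 pairs of a member and a score the relation was computed over the libraries, 1 of them in 2 sets of libraries, and p-values were adjusted over these 9 relations by the Benjamini-Hochberg method. Members and markers come from the same libraries and share their depth and scaling. The scores also moved with each other. WT_SC replicate 4 and APP_NOX2 replicates 2 and 5 had the highest endothelial, pericyte and fibroblast scores. Each member was set against a single score, so a relation does not single out that cell type.

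Abcb1a followed the endothelial score closely. Pearson's r was 0.96 and Spearman's rho 0.95 over 17 libraries (permutation p = 1e-05 for both, the smallest that 100000 permutations can give, adjusted p = 9e-05). Without the 2 libraries farthest from the median score r was 0.94, and on deviations from the group means it was 0.96. Abcg2 gave r = 0.86 and rho = 0.86 (permutation p = 2e-05 and 4e-05, adjusted 9e-05 and 0.00012), and r = 0.78 without 2 libraries. Abcc4 gave a lower r of 0.55 and a rho of 0.70 (permutation p = 0.0228 and 0.00244, adjusted 0.0293 and 0.00409), and its r was 0.36 without 2 libraries, so it rests in part on them. On deviations from the group means, r was 0.88 for Abcg2 and 0.59 for Abcc4. With the endothelial score in the model, 0 members were called for inhibitor over both genotypes, beside 0% of all genes. For genotype over both peptides 1 member was called, the Abcc8 given above, beside 0.859% of all genes.

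Abcc9 gave r = 0.65 and rho = 0.70 with the pericyte score (permutation p = 0.00512 and 0.00273, adjusted 0.00922 and 0.00409), and r = 0.60 without 2 libraries. Abca9 gave r = 0.82 and rho = 0.86 with the fibroblast score (permutation p = 9e-05 and 3e-05, adjusted 0.000202 and 0.00012), and r = 0.70 without 2 libraries. Abca1 gave r = 0.58 and rho = 0.61 with the microglial score (permutation p = 0.0153 and 0.0118, adjusted 0.023 and 0.0152), and r = 0.43 without 2 libraries. Abca2 and the oligodendrocyte score gave r = 0.31 and rho = 0.20 (permutation p = 0.223 and 0.429, adjusted 0.223 and 0.429), a relation that did not pass. On deviations from the group means, r was 0.70 for Abcc9, 0.82 for Abca9, 0.70 for Abca1 and 0.45 for Abca2.

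Abca4 followed the choroid plexus score, which fell into separate sets of libraries with a gap of 1.56 on the log2 scale. In 7 libraries the score was 1.80 to 4.72 and Abca4 had 12.5 to 19.8 CPM, with a median of 15.3. In the other 10 libraries the score was 6.28 to 8.21 and Abca4 had 27.2 to 77.4 CPM, with a median of 44.9. Both sets held libraries of all 4 groups, so the split did not follow genotype or peptide. Within the 10 libraries r was 0.96 and rho 0.90 (permutation p = 6e-05 and 0.00093, adjusted 0.00018 and 0.00209), and r was 0.92 without 2 libraries. On deviations from the group means these were lower, with r = 0.87 and rho = 0.78, and r = 0.67 without 2 libraries. Within the 7 libraries r was 0.61 and rho 0.61 (permutation p = 0.148 and 0.169, adjusted 0.167 and 0.19), and r was 0.13 without 2 libraries, which did not pass.

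**Figure D4:**
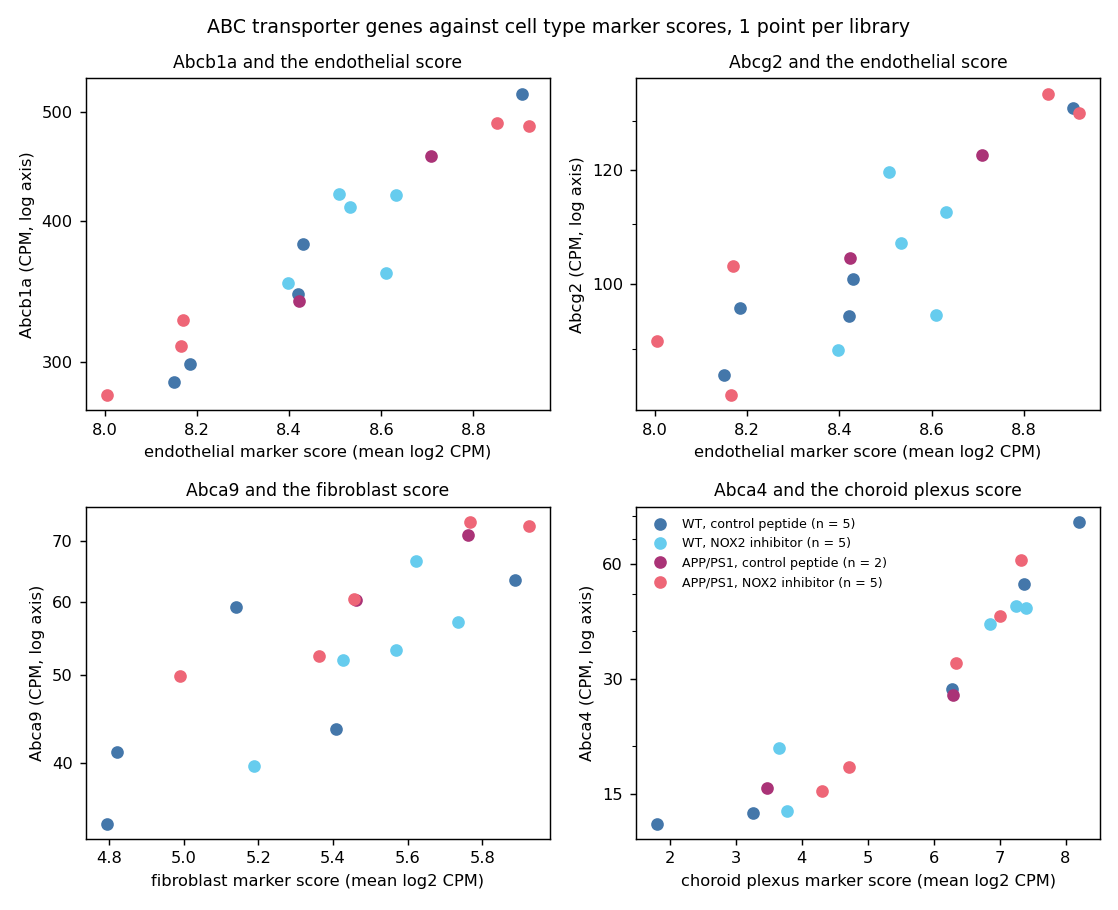
CPM of Abcb1a, Abcg2, Abca9 and Abca4 in each library (log axis) against a cell type marker score, the mean log2 CPM of the markers, with 1 point per library coloured by group. Abcb1a climbs from 280.2 to 519 CPM along the endothelial score with the groups intermixed. The Abca4 panel shows the 7 libraries at 12.5 to 19.8 CPM apart from the 10 at 27.2 to 77.4 CPM.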

How the data were processed

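RNA of microvessels, collected by centrifugation of cortex homogenate through dextran, was depleted of ribosomal RNA and made into stranded libraries, per the labels' protocols. The values the authors deposited are raw counts by Ensembl gene ID. The submitters' processing notes name cutadapt, STAR, HTSeq and DESeq2 and the builds GRCh37 and mm10, without their roles. The annotation and the strand setting are not given in the sources used here. A further 20 columns carried names of no listed sample and were left aside. Symbols, coordinates and exon lengths came from GENCODE vM21 (GRCm38), which matched 42250 IDs and left 437 without a symbol. Coding sequences came from the same annotation and genome.

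Counts were filtered with filterByExpr, scaled by TMM and tested with edgeR 4.0.16 (R 4.3.3) by the quasi-likelihood F test, with Benjamini-Hochberg adjustment over 18753 genes and a threshold of 0.05. An additive model gave each factor's effect over both levels of the other, and contrasts of group means gave the rest. Every fit used all 17 libraries, since APP_SC has 2. Levels were expressed as CPM with TMM scaling, per kilobase of exon where genes are compared, with a prior count of 2 on the log2 scale. Standard errors came from the estimate and its F statistic. Correlations used 100000 permutations, two-sided, with numpy 2.4.6, and the ranks for Spearman's rho came from scipy 1.17.1. The test was checked on simulated counts. No pair of libraries held identical values, and pairs within groups differed by a chi-square of 5.04 to 84.3 per degree of freedom. Each library was counted as 1 replicate, and whether libraries are separate animals is not shown by this.

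The members, the lists of roles, partners and markers, and the rule for named genes were chosen with earlier results of these data known. Some members are counted but their values are not reported here. The rule names 10 transporters (Abcb1a, Abcb1b, Abcg2, Abcc1, Abcc4, Abcc5, Abca1, Abca7, Abcg1 and Abcc9), the 5 highest per kilobase, any member called, and the 2 with the smallest p in each comparison. Alternatives were DESeq2 1.42.0, its size factors in edgeR, no filter, library sizes without Gm26917 and Gm42418, another model or the compared libraries alone, each library left out, the longest transcript as length and, chosen after seeing the data, the endothelial score as a covariate.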

Additional observations from a re-analysis of the deposited data

Results flagged for a closer look

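Of 54 groups of 5 values (the named genes in the 3 groups with 5 libraries), 4 held a library whose gap to the nearest other, as a share of the range of the group, exceeded Dixon's critical value of 0.710. Chance flags about 1 in 20 groups, which is 2.7 of 54. Abca2 in WT_SC replicate 1 was high, with 850.0 CPM beside 525 to 555 CPM and a gap ratio of 0.885. Abcg1 was high in the same library, with 123.7 CPM beside 94.3 to 98.7 CPM and a gap ratio of 0.834. WT_SC replicate 1 was the deepest library, with 17862965 counts, and had the lowest choroid plexus score of the 17, 1.80. Abcc8 in WT_NOX2 replicate 5 was high, with 79.1 CPM beside 64.1 to 66.4 CPM and a gap ratio of 0.833. Without that library the genotype difference of Abcc8 over both peptides was -0.24 (edgeR adjusted p = 0.247). Abcc1 in WT_NOX2 replicate 2 was low, with 50.8 CPM beside 58.7 to 60.8 CPM and a gap ratio of 0.806.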

How the results depend on the processing

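The count of 0 members called held under each alternative run for inhibitor over both genotypes, inhibitor in WT, inhibitor in APP/PS1, the interaction, genotype with control peptide and genotype with inhibitor. For genotype over both peptides, DESeq2's Wald test called 1 member and edgeR with the endothelial score, chosen after seeing the data, called 1, in both cases Abcc8, at -0.28 and -0.28. Over all genes, genotype over both peptides gave 110 calls, 182 with DESeq2, 161 with the endothelial score and 70 to 125 with 1 library left out, the lowest without APP_SC replicate 2. Genotype with control peptide gave 10 calls, 45 with DESeq2, 16 with the endothelial score and 4 to 17 with 1 library left out (6 without WT_SC replicate 3 or APP_SC replicate 1, 17 without WT_SC replicate 4 and 4 without APP_SC replicate 2). Genotype with inhibitor gave 34 calls, 61 with DESeq2, 53 with the endothelial score and 15 to 38 with 1 library left out (21, 19 and 15 without WT_NOX2 replicates 1, 3 and 5, and 15 and 17 without APP_NOX2 replicates 2 and 4). The cause was not tested. With the longest transcript as length, Abcc5 moved from 36.6 to 67.2 and Abca3 from 20.5 to 29.7 CPM per kilobase, which follows from the shorter length. Without APP_SC replicate 1 or 2 that group has 1 library, which is assumed to vary like the others. No paired analysis was possible because the replicate numbers were given in the order of the samples and pair no libraries. Members below about 10 CPM, such as Abcc3, Abcc6 and Abcg3, rest on few counts. For genotype over both peptides, Abcc3, Abcc6 and Abcg3 had standard errors of 0.133, 0.208 and 0.214. The median over the tested members was 0.095, and the far more abundant Abcb1a had 0.135.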
